A study of Mus musculus with 6 samples.

Results

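The 32 genes described here build, lengthen, desaturate, activate and burn fatty acids. They were taken by name, and every probe set whose platform annotation gave 1 of these symbols alone was included, which gave 75 of the 45037 probe sets tested. For counts, 1 probe set stood for each gene, the brightest by its mean on the 6 arrays, and the 18193 named genes in all were treated alike. The genes fall into 4 groups by role, namely synthesis with 7 genes, elongation and desaturation with 11, activation and transport with 6, and beta-oxidation with 8. The samples were lymphatic endothelial cells (LECs), the lining cells of lymphatic vessels, cut by laser capture from sections stained briefly for LYVE-1. In 3 samples they came from the mammary skin, described as healthy, of balb-c/nude mice, a strain without mature T cells. In the other 3 they came from xenograft tumours of the human line MDA-MB-435, excised 8 weeks after subcutaneous injection. The sample titles call them biological replicates. The labels give no age or sex of the animals and do not say whether each replicate came from its own mouse. The p-values therefore measure only the spread between these samples, which may not be that between animals. Each sample gave 1 array, after 1 round of Ribo-SPIA amplification.

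Fatty acids are made in the cytosol from acetyl-CoA, which acetyl-CoA carboxylase turns into malonyl-CoA and fatty acid synthase joins into palmitate under the control of the transcription factor SREBP-1. Elongases of the ELOVL family and desaturases at the endoplasmic reticulum then set chain length and double bonds, acyl-CoA synthetases activate free fatty acids, and the mitochondrial carnitine shuttle and beta-oxidation enzymes break them down. In skin, keratinocytes and above all sebaceous glands make large amounts of long and very long fatty acids for the barrier and for sebum, while cultured LECs are known to rely on fatty acid oxidation, with CPT1A at its entry.

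Most of the fatty acid genes had lower values in the tumour-associated LEC samples than in those from healthy skin. Of the 32 genes, 24 had a negative log2 difference (tumour minus healthy) and 8 a positive one, against 42.7% negative among all named genes. In 16 genes every tumour value lay below every healthy value, where 5.36% of all named genes did so, and in 1 gene, Fads2, every tumour value lay above, where 6.58% did so. The median log2 difference was -1.48 over the 32 genes and 0.08 over all named genes. After adjustment over all probe sets no fatty acid gene passed 0.05 in limma (lowest adjusted p = 0.312), where 0.0055% of named genes and 0.00444% of probe sets passed. At an unadjusted p under 0.05 there were 15 lower and 2 higher, where 4.28% and 3.22% of named genes were. In the plot of levels by role, the healthy and tumour values of synthesis genes part with few exceptions, whereas those of activation and transport largely mix. From arrays on captured tissue, fewer cells of a type and less RNA per cell cannot be told apart.

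**Figure D1:**
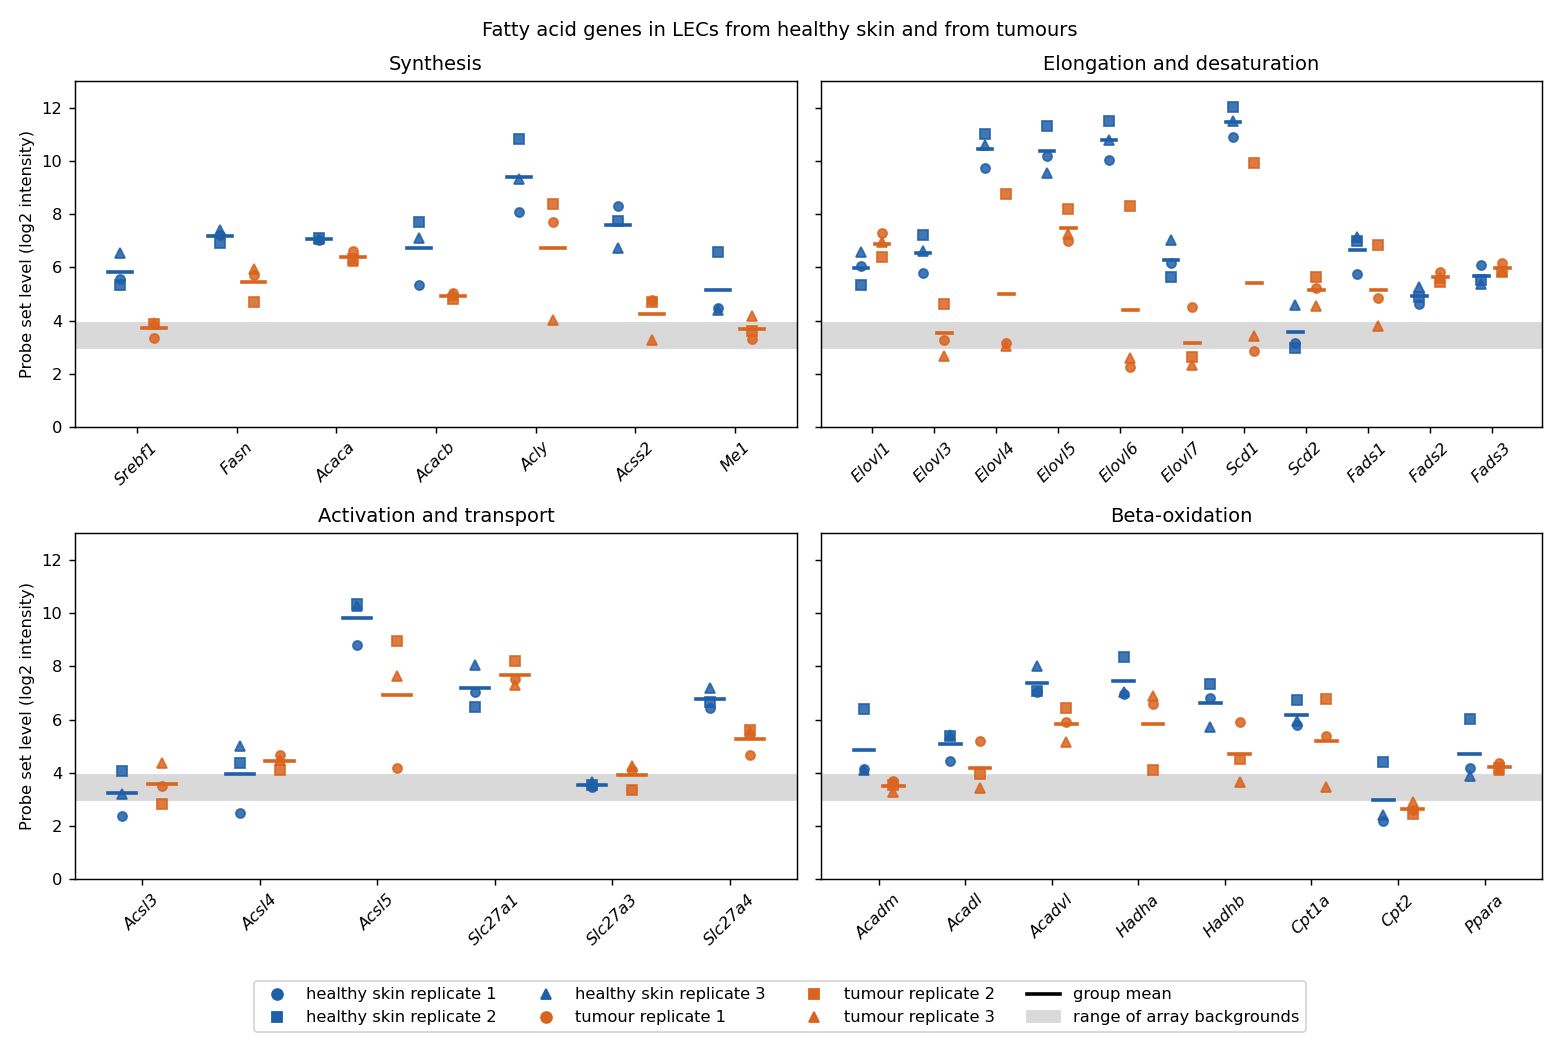
Level of each fatty acid gene (log2 intensity of its representative probe set) in the 3 healthy-skin and 3 tumour samples, with short bars for the group means and a grey band for the range of array backgrounds (2.96 to 3.91). All tumour values lie below all healthy values in 6 of 7 synthesis genes and 6 of 11 elongation and desaturation genes. They also lie below in 1 of 6 activation and transport genes and 3 of 8 beta-oxidation genes. In Fads2, of the elongation and desaturation group, they lie above. Of all named genes, 5.36% are lower and 6.58% higher without overlap. Levels of different genes are not comparable, because probe sets differ in response.

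The background of an array was set at percentile 95 of its 27 probe sets for bacterial spike-in controls, and of the 32 genes 14 were above it on all 6 arrays. The share of probe sets above background was 39.6% to 56.0% per array. The labelled cell type was present, since the lymphatic markers Prox1, Pdpn, Flt4, Reln and Mmrn1 were above background on all 6 arrays, but Lyve1, whose protein guided the capture, was not above background in the first healthy-skin sample (3.21, with background at 3.81) and had 7.58 and 6.81 in the others. The 6 lymphatic markers averaged 5.83, 7.14 and 7.52 in healthy skin and 7.83, 8.30 and 8.33 in tumours. Without healthy-skin replicate 1, 20 fatty acid genes were lower and 2 higher without overlap, where 10% and 20.7% of all named genes were, and 15 were lower and 0 higher at an unadjusted p under 0.05. The level of hybridization controls (log2) was 13.01, 12.35 and 12.33 in healthy skin and 13.20, 12.78 and 13.36 in tumours. With that level as a covariate the count of lower genes at an unadjusted p under 0.05 was 6 in place of 15. The share of all named genes at this threshold was computed only for the main fit (4.28% lower, 3.22% higher). It is not known with the covariate or without healthy-skin replicate 1. With the covariate the medians were -1.07 for synthesis, -1.74 for elongation and desaturation and -0.57 for beta-oxidation, and 18 of the 32 differences moved by over 1.5 times.

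Promoter sequence was read for 28 of the 32 genes from RefSeq (build GRCm38.p6), as the 250 bases before each annotated start. The windows of 4 genes are shown because 3 of these genes had lower values in tumours (Fasn, Acss2 and Elovl5) and 1 had a positive difference (Elovl1, the first of its 2 windows). They lie at chr11:120824548-120824797 on the minus strand for Fasn, chr2:155517793-155518042 on the plus strand for Acss2, chr9:77917115-77917364 on the plus strand for Elovl5 and chr4:118427843-118428092 on the plus strand for Elovl1. Capitals mark CCAAT, the box bound by NF-Y, a frequent partner of SREBP, read on either strand (ATTGG when reversed), and CACGTG, a form of the E-box.
Fasn: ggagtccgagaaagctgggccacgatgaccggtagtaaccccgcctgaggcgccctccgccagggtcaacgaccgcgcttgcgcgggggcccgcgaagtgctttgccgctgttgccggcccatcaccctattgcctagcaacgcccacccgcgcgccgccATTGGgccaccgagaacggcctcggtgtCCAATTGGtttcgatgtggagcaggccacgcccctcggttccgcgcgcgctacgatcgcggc
Acss2: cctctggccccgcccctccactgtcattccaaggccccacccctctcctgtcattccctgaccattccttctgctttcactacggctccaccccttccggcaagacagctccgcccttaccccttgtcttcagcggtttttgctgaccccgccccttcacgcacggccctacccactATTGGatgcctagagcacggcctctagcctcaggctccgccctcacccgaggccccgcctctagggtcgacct
Elovl5: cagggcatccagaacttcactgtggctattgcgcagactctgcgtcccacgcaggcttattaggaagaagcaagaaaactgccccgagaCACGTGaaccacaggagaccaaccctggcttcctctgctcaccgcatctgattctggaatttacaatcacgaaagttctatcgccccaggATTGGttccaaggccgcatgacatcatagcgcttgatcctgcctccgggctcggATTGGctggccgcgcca
Elovl1: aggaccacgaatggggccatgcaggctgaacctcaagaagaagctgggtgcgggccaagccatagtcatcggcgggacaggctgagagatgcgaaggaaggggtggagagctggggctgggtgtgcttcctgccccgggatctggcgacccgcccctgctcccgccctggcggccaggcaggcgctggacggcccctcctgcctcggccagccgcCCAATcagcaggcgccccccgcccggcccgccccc
The Fasn window holds 3 CCAAT boxes that begin 90, 62 and 59 bases before the start, the last 2 overlapping on opposite strands, and the Elovl5 window holds 2. CCAAT was found in 13 of the 28 genes (46.4%), among them 6 of the 14 whose tumour values all lay below the healthy ones and 7 of the other 14, and in 37.5% of all genes with a window (33.8% of windows). The sterol regulatory element searched as TCACNCCAC was in 0 of the 28 genes and in 1.22% of all genes, CACGTG was in 2 of the 28 and 6.86% of all, and the PPAR element, 2 copies of AGGTCA 1 base apart, was in 0 of the 28 and 0.0407% of all. Both strands were searched, and these matches describe letters in the windows and not binding.

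The 7 synthesis genes all had negative differences on their representative probe sets, with a median of -1.79 on the log2 scale. In 6 of them every tumour value lay below every healthy value, where 5.36% of all named genes did so. With other processing only Acaca changed sign, at 0.055 with the mean over its probe sets. Dimmer probe sets had 0.80 for Acaca, 0.44 for Acss2 and 0.25 and 0.15 for Acly. Those of Acss2 and Acly were below background on all 6 arrays. The remaining dimmer ones were negative. Srebf1, which encodes SREBP-1, the regulator of this group, had 5.56, 5.34 and 6.54 in healthy skin and 3.35, 3.88 and 3.92 in tumours. The difference was -2.10 with a standard error of 0.40, 4.28-fold lower (limma adjusted p = 0.367). Its tumour values were close to background, and tumour replicate 1 was below it.

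Fasn, fatty acid synthase, had 7.22, 6.93 and 7.42 in healthy skin and 5.73, 4.71 and 5.94 in tumours, all above background. All tumour values lay below the lowest healthy one. The group means differed by -1.73 ± 0.39 (limma SE, adjusted p = 0.517), 3.31-fold lower. Acss2, the cytosolic enzyme that makes acetyl-CoA from acetate, had 8.32, 7.73 and 6.73 against 4.76, 4.70 and 3.25. It had the most negative difference of the group at -3.36 ± 0.57, 10.2-fold lower (limma adjusted p = 0.312, the smallest of the 32 genes), its second probe set had -2.41, and tumour replicate 3 was below background.

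The acetyl-CoA carboxylases differed in size. Acaca, the cytosolic form that feeds synthesis, had 7.04, 7.11 and 7.07 in healthy skin and 6.61, 6.30 and 6.23 in tumours. Its groups were tight and separate with a difference of -0.69 ± 0.26 (limma adjusted p = 0.731), although a dimmer probe set had 0.80. Acacb, the form at the mitochondrial surface whose malonyl-CoA restrains CPT1, had 5.35, 7.71 and 7.11 against 5.04, 4.80 and 4.97. The tumour values were nearly equal, and the healthy ones were spread over 2.36 log2 units (difference -1.79 ± 0.60, limma adjusted p = 0.700). On the dimmer Acacb probe set the groups overlapped, with a difference of -0.25.

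Acly, ATP citrate lyase, which supplies cytosolic acetyl-CoA from citrate, was the member whose groups overlapped, with 9.40 ± 1.37 in healthy skin and 6.71 ± 2.34 in tumours (SD, n = 3; difference -2.69, limma adjusted p = 0.805). Its 3 brightest probe sets had -2.69, -1.44 and -0.41, so the size depends on the probe set, and without tumour replicate 3 it was -1.35. Me1, the malic enzyme that yields NADPH for synthesis, had 4.46, 6.57 and 4.40 against 3.32, 3.61 and 4.16. The healthy mean was raised by replicate 2, and the difference was -1.44 ± 0.63 (limma adjusted p = 0.794), or -0.73 without that replicate, with -2.54 on the other probe set.

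Elongation and desaturation genes held both the most negative and the most positive differences of the 32 genes, with 7 negative, 4 positive and a median of -2.88. Elovl6, Scd1 and Elovl4 had differences beyond -5 with all 6 arrays, and -3.59, -3.07 and -2.74 with the hybridization covariate. Elovl6, which lengthens palmitate to stearate, had 10.03, 11.50 and 10.78 in healthy skin and 2.25, 8.31 and 2.60 in tumours. Tumour replicates 1 and 3 were below background and replicate 2 was far above it (difference -6.38 ± 1.56, limma adjusted p = 0.547).

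Scd1, the stearoyl-CoA desaturase that makes oleate, had 10.90, 12.04 and 11.49 in healthy skin and 2.87, 9.93 and 3.44 in tumours. Elovl4, which makes the very long acyl chains of epidermal ceramides, had 9.74, 11.02 and 10.61 against 3.16, 8.75 and 3.03. In both genes tumour replicates 1 and 3 were below background while replicate 2 lay 0.97 (Scd1) and 0.99 (Elovl4) log2 units below the lowest healthy value. The differences were -6.07 ± 1.77 for Scd1 and -5.48 ± 1.49 for Elovl4 (limma adjusted p = 0.638 and 0.594). Second probe sets had -5.62 for Scd1, -4.57 for Elovl4 and -4.62 for Elovl6, and a dimmer one had -0.84 for Elovl6.

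Without tumour replicate 2 these 3 genes passed the threshold over all probe sets (limma adjusted p = 0.0224 for each), among 23 probe sets called in place of 2. Since neither remaining tumour array was above background for them, their differences have only a bound. Their p-values likewise rest on tumour values below background. With tumour values raised to each array's background, Scd1 was at least 222-fold lower, Elovl6 at least 136-fold and Elovl4 at least 110-fold. Of those 23, 5 belonged to these 3 genes. With all 6 arrays none of the 3 was called.

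The elongases Elovl3, Elovl5 and Elovl7 also had lower values on every tumour array. Elovl5, an elongase of polyunsaturated fatty acids, had 10.19, 11.31 and 9.56 in healthy skin and 6.97, 8.20 and 7.25 in tumours. All of these were above background, the difference was -2.88 ± 0.54 (limma adjusted p = 0.367), 7.34-fold lower, and the second probe set had -2.54. Elovl3, an elongase of sebaceous glands, hair follicles and brown fat, had 5.77, 7.20 and 6.62 against 3.26, 4.61 and 2.68. Only tumour replicate 2 was above background among the tumour samples (difference -3.01 ± 0.59, limma adjusted p = 0.390). Elovl7 had 6.15, 5.63 and 7.03 against 4.52, 2.63 and 2.32, and here only tumour replicate 1 was above background (difference -3.11 ± 0.66, limma adjusted p = 0.467). Dimmer Elovl7 probe sets had -2.42 and -2.38 without overlap, and -0.66, -0.48 and -0.31 with overlap.

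The remaining members of this group had positive differences, apart from Fads1. Scd2, the desaturase paralogue of Scd1 with wide expression, had 3.16, 2.96 and 4.59 in healthy skin and 5.23, 5.63 and 4.53 in tumours. It was above background in 1 healthy and all 3 tumour samples, the groups overlapped by 0.06 log2 units, and the difference was 1.56 ± 0.52 (limma adjusted p = 0.702), with 0.57 and -0.31 on its dimmer probe sets. Fads2, the delta-6 desaturase of polyunsaturated fatty acids, had 4.61, 4.89 and 5.24 against 5.82, 5.45 and 5.61. Every tumour value was higher on this probe set, and the group means differed by 0.71 ± 0.29 (limma adjusted p = 0.776). On its dimmer probe sets, with differences of 0.23 and 0.67, the groups overlapped.

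Elovl1, an elongase of saturated very long chains, had 5.98 ± 0.62 in healthy skin and 6.88 ± 0.45 in tumours (difference 0.90, limma adjusted p = 0.813), and its other 3 probe sets had 1.09, 0.50 and 0.02. Fads1, the delta-5 desaturase, had 6.64 ± 0.76 and 5.16 ± 1.55 (difference -1.48), and Fads3 had 5.66 ± 0.37 and 5.96 ± 0.19 (difference 0.30). The Fads genes thus did not share a direction, Fads1 had 0.09 on its other probe set, and with the hybridization covariate Fads1 and Fads3 had 0.26 and -0.074.

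**Figure D2:**
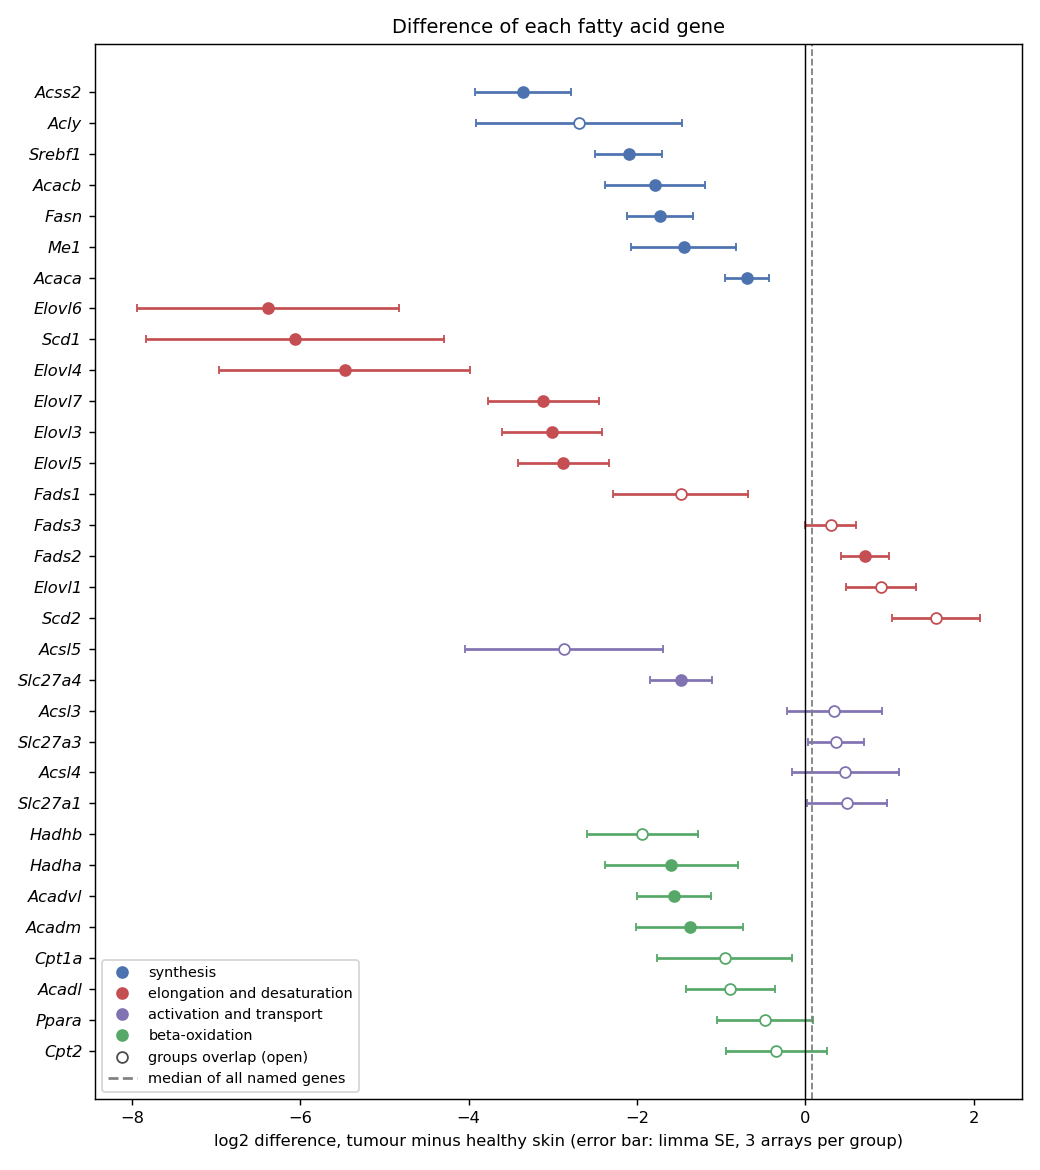
log2 difference (tumour minus healthy skin) of each fatty acid gene with its limma standard error, 3 arrays per group, sorted within the 4 roles; filled points have groups that do not overlap, open points overlap, and the dashed line is the median of all named genes (0.08). Elovl6, Scd1 and Elovl4 lie beyond -5, with the widest error bars, while Scd2, at 1.56, lies farthest to the right.

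Activation and transport genes were split, with 2 negative and 4 positive differences and a median of 0.35. Acsl5, an acyl-CoA synthetase of the outer mitochondrial membrane and endoplasmic reticulum, had 8.81, 10.33 and 10.26 in healthy skin and 4.19, 8.96 and 7.65 in tumours. The groups overlapped, since tumour replicate 2 exceeded healthy-skin replicate 1, and tumour replicate 1 was the low one (difference -2.87 ± 1.18, limma adjusted p = 0.778, and -1.49 without it). Slc27a4, the fatty acid transport protein FATP4 of the epidermis and gut, had 6.43, 6.64 and 7.19 against 4.68, 5.62 and 5.53. It was the only member of this group without overlap, at -1.48 ± 0.37 (limma adjusted p = 0.558), 2.78-fold lower.

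The remaining 4 genes had small positive differences that were within the spread between replicates. Slc27a1, the transport protein FATP1, had 7.18 ± 0.79 in healthy skin and 7.68 ± 0.48 in tumours, above background on all 6 arrays (difference 0.50, limma adjusted p = 0.892; 0.27 on its second probe set). Slc27a3 had 3.54 ± 0.09 and 3.90 ± 0.50, Acsl3 3.22 ± 0.85 and 3.57 ± 0.78, and Acsl4, a synthetase that prefers arachidonate, 3.95 ± 1.31 and 4.43 ± 0.29. The other Acsl4 probe sets had -0.91 and -1.43. Without healthy-skin replicate 1, in which Acsl3 and Acsl4 were lowest, the median of the group was -0.17.

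All 8 beta-oxidation genes had negative differences on their representative probe sets, with a median of -1.17. In 3 of them every tumour value lay below every healthy value, where 5.36% of all named genes did so. Dimmer probe sets had 0.55 for Ppara, 0.12 for Cpt2 and 0.025 for Hadhb. The remaining dimmer ones were negative, among them -0.56 for Ppara and -0.17 for Cpt1a. With the hybridization covariate Cpt1a and Cpt2 turned positive (0.40 and 0.12). Acadvl, the very-long-chain acyl-CoA dehydrogenase that starts oxidation of long chains, had 7.05, 7.08 and 8.01 in healthy skin and 5.90, 6.43 and 5.14 in tumours. All values were above background, and the difference was -1.56 ± 0.44 (limma adjusted p = 0.620), 2.95-fold lower. Acadm, the medium-chain dehydrogenase, had 4.13, 6.39 and 4.09 against 3.69, 3.53 and 3.26. The groups were separate but close, and healthy-skin replicate 2 was high (difference -1.37 ± 0.64, limma adjusted p = 0.812, and -0.61 without it).

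Hadha and Hadhb encode the subunits of the mitochondrial trifunctional protein, which carries out the later steps on long chains. Hadha had 6.95, 8.34 and 7.05 in healthy samples against 6.57, 4.11 and 6.88. Tumour replicates 1 and 3 were just below the lowest healthy value, and replicate 2 was far below (difference -1.60 ± 0.79, limma adjusted p = 0.836, and -0.72 without it). Hadhb had 6.82, 7.34 and 5.72 against 5.90, 4.51 and 3.66. Here the groups overlapped and tumour replicate 3 was the lowest (difference -1.94 ± 0.66, limma adjusted p = 0.710), so the partners did not follow each other over the tumour samples. On the second Hadhb probe set, with a difference of -0.77, every tumour value lay below every healthy value.

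Among the genes of fatty acid entry and its control, Cpt1a, Cpt2 and Ppara gave no separation, and neither did Acadl. Acacb and Slc25a20, the carnitine-acylcarnitine carrier, had lower values on every tumour array (differences -1.79 and -3.55). Cpt1a, carnitine palmitoyltransferase 1A, had 6.17 ± 0.50 in healthy skin and 5.21 ± 1.67 in tumours (difference -0.96, limma adjusted p = 0.881), with tumour values of 5.38, 6.79 and 3.46 on both sides of the healthy ones. Without tumour replicate 3 the difference was -0.087. Cpt2, its partner at the inner membrane, was above background in healthy-skin replicate 2 alone (2.99 ± 1.22 and 2.65 ± 0.22). Acadl, the long-chain dehydrogenase, had 5.08 ± 0.54 and 4.19 ± 0.92. Ppara, the nuclear receptor that drives oxidation genes, had 4.18, 6.02 and 3.89 in healthy skin and 4.36, 4.20 and 4.10 in tumours. Healthy-skin replicate 2 was alone in being high, and without it the differences were 0.18 in place of -0.48 for Ppara and 0.36 in place of -0.34 for Cpt2.

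Within groups the genes varied in different ways. Healthy-skin replicate 2 was the highest array for beta-oxidation genes, at 0.80 relative to the healthy mean against -0.46 and -0.34 in replicates 1 and 3. Among tumour samples the synthesis group stood at -1.77, -1.79 and -2.35, beta-oxidation at -0.70, -1.16 and -1.56, and activation and transport at -0.96, -0.23 and -0.14. Elongation and desaturation genes stood at -2.75, -0.91 and -3.14, so that tumour replicate 2 lay apart in this group. Over the 32 genes replicate 2 was the highest tumour sample in 13, replicate 1 in 12 and replicate 3 in 7. The median range was 1.23 log2 units in tumours and 1.42 in healthy skin, and 5 genes had a tumour SD over 2, namely Acly, Elovl4, Elovl6, Scd1 and Acsl5.

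**Figure D3:**
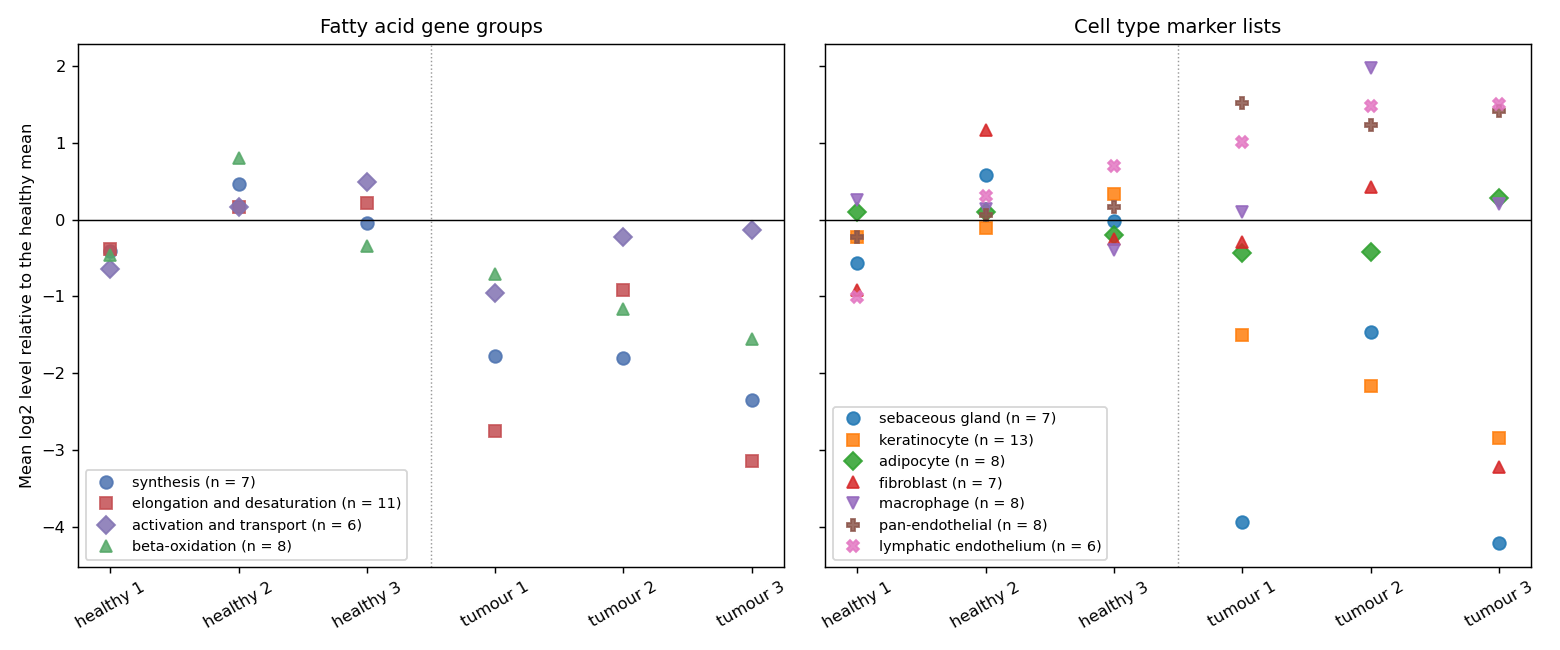
Mean log2 level of the 4 fatty acid gene groups (left) and of 7 cell type marker lists (right) on each array, relative to the healthy mean, with the number of genes in brackets. Elongation and desaturation genes and sebaceous gland markers are both less low in tumour replicate 2 (-0.91 and -1.46) than in replicates 1 and 3, and endothelial lists are higher in all tumour samples.

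Most markers of sebaceous glands and keratinocytes were lower in the same tumour samples. The list of 7 measured sebaceous gland markers includes genes also used by other skin cells. Of these, 6 lay below every healthy value, where 5.36% of all named genes did so. The mean level of the list was 6.98 to 8.12 in healthy skin and 3.34 to 6.08 in tumours. Fa2h, which hydroxylates fatty acids of skin lipids, had 10.10, 10.66 and 10.13 in healthy skin and 1.82, 8.55 and 1.94 in tumours. Far2, a fatty acyl-CoA reductase of wax synthesis, had 11.39, 9.72 and 10.32 against 3.53, 7.70 and 4.24. Tumour replicate 2 was thus the high tumour sample for Fa2h and Far2 as it was for Elovl4, Elovl6 and Scd1. Relative to the healthy mean the list stood at -3.93, -1.46 and -4.21 in tumour replicates 1, 2 and 3. Mc5r, a receptor of sebocytes, was below background on all 6 arrays.

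Keratinocyte markers followed another order over the tumour samples. Of 13 measured, 9 lay below every healthy value, where 5.36% of all named genes did so. The groups overlapped for Krt5 (difference -1.58), Krt14 (-2.41), Sfn (0.19) and Ivl (-0.075). In tumour replicate 1 Krt5 and Krt14 had 10.53 and 9.23, against 10.02 to 10.74 and 8.52 to 9.54 in healthy skin. The mean level of the list was 7.02 to 7.58 in healthy skin and 4.41 to 5.75 in tumours. Relative to the healthy mean it stood at -1.50, -2.17 and -2.84 in tumour replicates 1, 2 and 3. Adipocyte markers did not separate the groups in any of 8 genes, with a mean level of 4.27 to 4.57 in healthy skin and 4.04 to 4.75 in tumours, and Adipoq and Cidec were below background on all 6 arrays. The mean level of the fibroblast markers ranged from 8.21 to 10.29 in healthy skin and from 5.90 to 9.55 in tumours, lowest in tumour replicate 3. Macrophage markers also set tumour replicate 2 apart, at 0.10, 1.97 and 0.20 in tumour replicates 1, 2 and 3 relative to the healthy mean. All 8 pan-endothelial markers had positive differences, with mean levels of 4.14 to 4.53 in healthy skin and 5.59 to 5.88 in tumours. The part of these cell types in the fatty acid results was not tested.

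**Figure D4:**
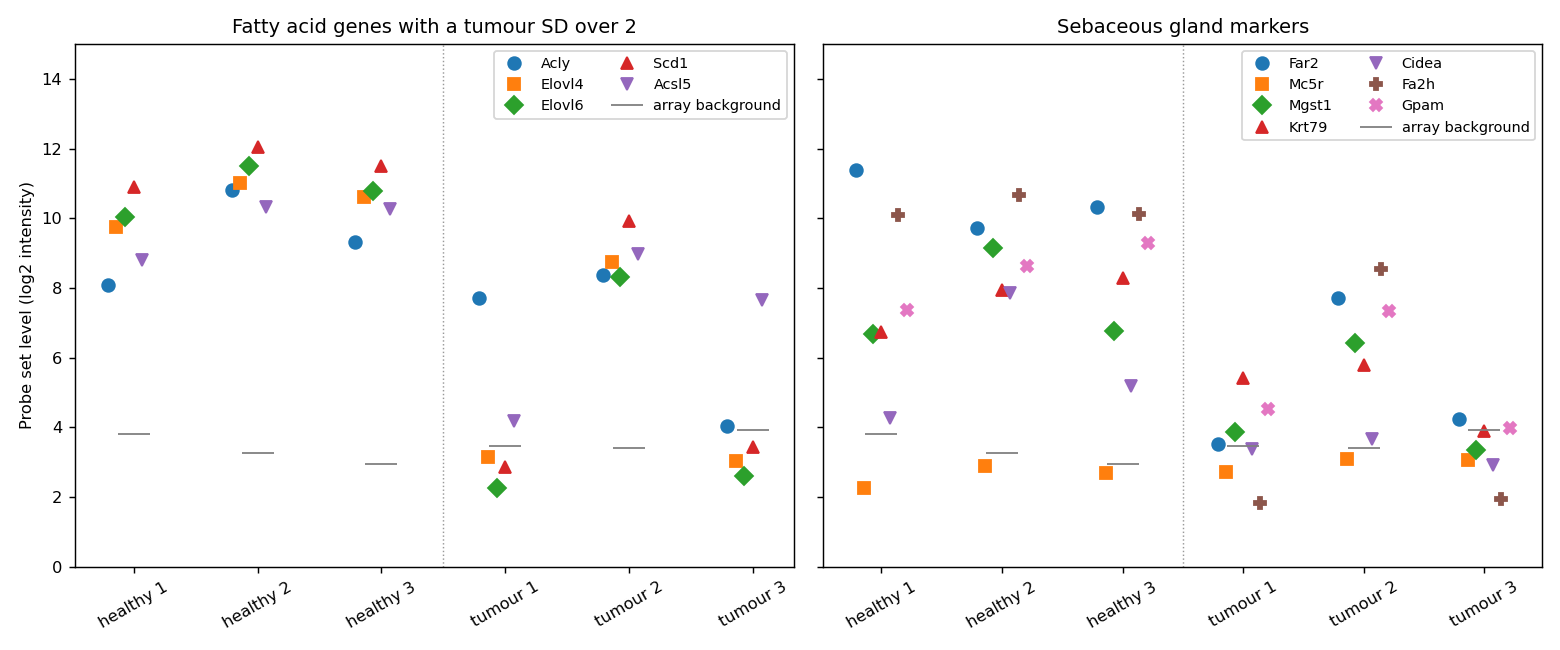
Level (log2 intensity) on each array of the 5 fatty acid genes with a tumour SD over 2 (left) and of the 7 measured sebaceous gland markers (right), with grey bars for each array's background. Elovl4, Elovl6 and Scd1 are below background in tumour replicates 1 and 3 and between 8.31 and 9.93 in replicate 2, where Fa2h and Far2 are at 8.55 and 7.70; Acly and Acsl5 have other patterns.

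Other genes of these pathways were counted in 5 lists chosen by function, with 68 of 75 genes represented by a probe set of a single symbol. Of the 68 genes, 51 had negative differences (42.7% of all named genes did), 20 lay below every healthy value (5.36%) and 3 above (6.58%), and the median was -0.82. None passed the adjusted threshold in limma, and 19 were lower and 1 higher at an unadjusted p under 0.05 (4.28% and 3.22% of named genes). In transcription and sterol sensing 4 of 12 genes lay below without overlap. Insig1 and Insig2, which hold SREBP precursors in the endoplasmic reticulum, differed by -2.55 and -1.93, Mid1ip1, an activator of acetyl-CoA carboxylase, by -1.76, and Srebf2, the SREBP of cholesterol synthesis, by -2.52.

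The lists of further synthesis and elongation genes differed in their medians. Further synthesis genes had a median of -0.10 over 10 genes. The NADPH-producing enzymes Idh1 (-3.74) and Pgd (-1.54) lay below without overlap, thus 2 genes, and 1 gene lay above. Of all named genes 5.36% lay below and 6.58% above. The partners of the elongases had a median of -1.43 over 12 genes, and 4 lay below without overlap (5.36% of all named genes did). These were Hsd17b12 (-3.40), Hacd2 (-4.13) and Hacd3 (-2.59), which carry out the middle steps of the elongation cycle, and Tecr (-1.87), which carries out the last. Hsd17b12 had 2.50, 6.21 and 2.87 and Hacd2 2.44, 8.40 and 4.06 in tumour replicates 1, 2 and 3, again highest in replicate 2, whereas Tecr had 7.59, 8.68 and 7.36.

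Further oxidation genes had a median of -0.94 over 21 genes, 7 of which lay below without overlap, where 5.36% of all named genes did so. Hadh, the short-chain hydroxyacyl-CoA dehydrogenase, had 10.32, 11.31 and 9.27 in healthy skin and 3.61, 7.78 and 4.83 in tumours. The difference was -4.89 ± 1.08 (limma adjusted p = 0.491), with tumour replicate 2 the highest tumour sample. Slc25a20, the carnitine-acylcarnitine carrier, differed by -3.55, the enoyl-CoA isomerase Eci2 by -2.33, the dienoyl-CoA reductase Decr1 by -2.20 and the thiolase Acaa2 by -1.33. Among 13 further genes of activation, binding and transport the median was -0.38, with Cd36, a fatty acid uptake receptor, at -2.55, Fabp5, the epidermal fatty acid binding protein, at -3.63 and the thioesterase Acot7 at 0.89. In this list 3 genes lay below and 2 above without overlap (5.36% and 6.58% of all named genes).

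**Figure D5:**
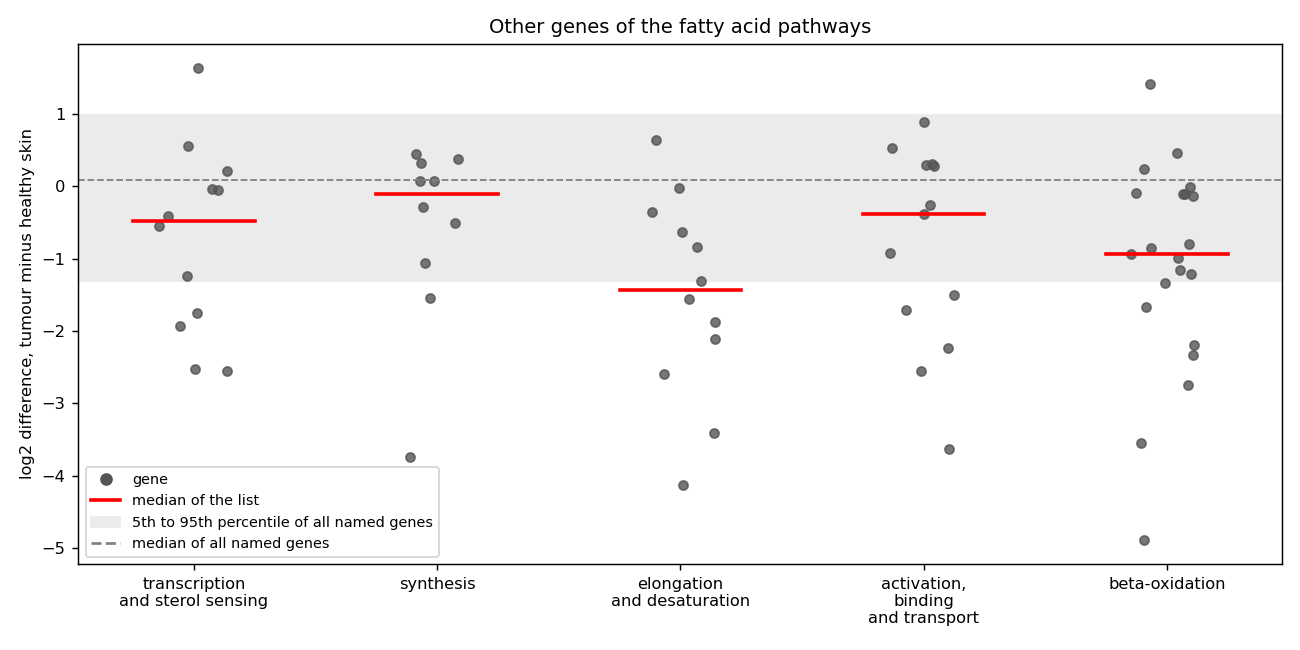
log2 difference (tumour minus healthy skin) of 68 other pathway genes in 5 lists, with a red bar for the median of each list, a grey band from the 5th to the 95th percentile of all named genes (-1.31 to 0.99) and a dashed line for their median. The list medians run from -1.43 (elongation and desaturation) to -0.10 (synthesis), and the band describes single genes, not medians of lists.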

How the data were processed

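Per the submitters' processing notes, the deposited probe set intensities came from RMA, which corrects background, normalizes by quantiles and summarises probes. The software version is not stated there, and the values are on a linear scale. They were taken to log2 with no pseudocount and no filter, without the 64 control probe sets. Groups came from the sample titles. Single-symbol probe sets numbered 34945 (34741 matched RefSeq), those with several symbols 932 and those with none 9160. The test was limma 3.58.1 under R 4.3.3 (two-sided, Benjamini-Hochberg over 45037 probe sets, threshold 0.05), tested on simulated data. The number of arrays limits the precision. The genes, lists and motifs were chosen with earlier results of these data known. All 32 genes are named, with every sample's value for those without overlap or with an unadjusted p under 0.05 and for Fasn, Scd1 and Ppara. At most 5 other pathway genes per list are named, by smallest p. Shared replicate numbers were not taken as pairs. Alternatives were a filter on dim probe sets, other scalings, an offset, a replicate block, other variance options, a covariate, other gene summaries and each array left out.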

Additional observations from a re-analysis of the deposited data

How the results depend on the processing

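Over 15 alternatives, 24 of the 32 genes kept their sign throughout, and 467 of 479 values had the sign of the full fit. Most of these alternatives used the same representative probe set. The share of all named genes at an unadjusted p under 0.05 was not computed for the alternatives, so their counts at that threshold have no background beside them. Of 23 genes with more than 1 probe set, 12 had the same sign on all of them. Among the other probe sets, 30 of 43 had the sign of the representative. The choice of probe sets not ending in _x_at and the non-overlap counts were added after seeing the data. The 2 probe sets called became 21 with the dim filter, 1 with trended robust variance, and 0 with centring, the offset of 16, the hybridization covariate or the replicate block. Same-numbered samples did not deviate together (correlations 0.04, 0.10 and -0.01), and the replicate block left 15 fatty acid genes lower and 2 higher at an unadjusted p under 0.05. The 2 higher genes became 1 with the dim filter, centring, trended robust variance, the covariate or no _x_at probe sets, and 0 with means over probe sets. Higher genes without overlap went from 1 to 2 with such means and to 0 without _x_at probe sets. With the covariate, 6 genes were lower at an unadjusted p under 0.05, the medians were -1.07 (synthesis), -1.74 (elongation and desaturation) and -0.57 (beta-oxidation), 23 of 32 differences were nearer 0 or reversed, and Fads1 (0.26), Fads3 (-0.074), Cpt1a (0.40) and Cpt2 (0.12) changed sign. With means over probe sets the median was -1.56 for elongation and desaturation and -0.17 for activation and transport, and Acaca (0.055), Fads3 (-0.0079) and Acsl4 (-0.62) changed sign. The cause of these changes was not tested. Leaving out 1 array gave 0 to 23 probe sets and 0 to 3 fatty acid genes called, the upper values without tumour replicate 2. It gave 11 to 15 lower and 0 to 3 higher genes at an unadjusted limma p under 0.05. Without overlap, 16 to 20 were lower and 1 to 4 higher, where 8.54% to 10.3% and 9.9% to 20.7% of all named genes were. The medians ranged from -2.22 to -1.72 (synthesis), -2.96 to -2.40 (elongation and desaturation), -1.47 to -0.71 (beta-oxidation) and -0.17 to 0.43 (activation and transport, lowest without healthy-skin replicate 1). In 16 genes leaving out 1 array moved the difference by over 1.5 times, and it ranged from -0.078 to 0.77 for Acsl3, -0.25 to 1.01 for Acsl4, -0.75 to 0.36 for Cpt2 and -0.88 to 0.18 for Ppara. Signal near background limits Cpt2, Acsl3 and Slc27a3, and other genes on some arrays. Only 14 of the 32 genes were above background on all 6 arrays. Elovl3, Elovl4, Elovl6, Elovl7 and Scd1 were above it on 1 tumour array each, and Scd2 on 1 healthy array.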
